A study of Homo sapiens with 6 samples.

Results

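BPI, DYSF, CXCR2, CAMP, DEFA4, RNASE3, RETN and LTF are genes linked to granulocytes, though not all to a late stage of their development. These 8 of the 33981 genes in the count table are described here. They were chosen by name after their read counts in this same comparison had been seen, so their own levels and fold changes are given as a description without a test. The cells were THP-1, an established monocytic line derived from an acute myeloid leukemia, grown with serum in IMDM by the sample labels and in RPMI by the supplementary methods. All 6 samples had been infected with a lentivirus that also carries GFP, 3 with a scrambled shRNA and 3 with an shRNA against NFIC, a transcription factor of the nuclear factor I family, and GFP-positive cells had been sorted for bulk RNA sequencing 4 days after infection. The control is called scrambled shRNA after the sample labels, whereas the methods of the study describe a vector with GFP only. Only 1 line and 1 shRNA, named sh494 in the study, were used, and nothing in the labels says that the replicates came from separate infections, so every p-value here measures the spread between these samples, which may be technical.

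Granulocytes fill their granules in waves while they mature. Azurophil granules are loaded first, at the promyelocyte stage, then specific granules, then gelatinase granules and secretory vesicles, and surface receptors for chemokines come last. BPI and DEFA4 encode antimicrobial proteins of azurophil granules, CAMP and LTF encode proteins of specific granules, RNASE3 encodes the cationic ribonuclease of eosinophils, RETN encodes the secreted peptide resistin, CXCR2 encodes a chemokine receptor of neutrophils, and DYSF encodes dysferlin, a membrane protein best known from the repair of muscle membranes and also made in myeloid cells.

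The level of these genes split in opposite directions. Of the 7 members with enough counts to be fitted, 3 (BPI, DYSF and CXCR2) were higher in every NFIC shRNA sample than in every scrambled sample, and 4 (CAMP, DEFA4, RNASE3 and RETN) were lower in every NFIC shRNA sample. Among all 19182 genes fitted, 32.2% lay wholly above and 33.0% wholly below the scrambled samples, and 29.6% were called higher and 30.3% lower at an adjusted p under 0.05 from edgeR's quasi-likelihood test. Since the members were selected on these counts, nothing is read from their number against these shares. The median log2 fold change was -0.45 over the 7 fitted members and -0.01 over all genes fitted.

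The libraries held from 20369543 to 24809720 counts, and 3 counts, taken as the smallest detectable amount, were worth between 0.122 and 0.146 CPM (counts scaled to the library size with TMM factors). This limit covers counting error only. NFIC itself gave 911, 1019 and 904 counts in scrambled replicates 1 to 3 and 399, 518 and 493 in the NFIC shRNA replicates. Its level was 41.9 ± 0.445 CPM (SD, n = 3) in the controls and 21.0 ± 1.52 CPM with NFIC shRNA, a log2 fold change of -0.99 (SE 0.07).

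The sequences that bear on the comparison are the shRNA's target and promoters of members that hold the core of the NFI motif. CXCR2 holds it too, but its window overlaps exons of other CXCR2 transcripts and is not printed. The target of sh494 lies in the coding sequence of exon 7 of NFIC at chr19:3449042-3449062 on the plus strand of GRCh38, where it has 1 match on the chromosome. The fewest mismatches to it along any annotated transcript of a member were 7, in CXCR2, and RETN had the most, at 10. The promoters are the 250 bases before the RefSeq start (GRCh38.p14), at chr2:71453311-71453560 for DYSF, chr14:20891135-20891384 for RNASE3 and chr19:7668799-7669048 for RETN, all on the plus strand and written 5′ to 3′. Capitals mark TTGGC or GCCAA, the core of the NFI motif on either strand, and, in RNASE3 alone, also TTGCNNAA, the C/EBP motif. The DYSF window is also covered by an exon of a long noncoding RNA annotated on the opposite strand.
sh494 target: gatggacaagtcaccattcaa
DYSF promoter: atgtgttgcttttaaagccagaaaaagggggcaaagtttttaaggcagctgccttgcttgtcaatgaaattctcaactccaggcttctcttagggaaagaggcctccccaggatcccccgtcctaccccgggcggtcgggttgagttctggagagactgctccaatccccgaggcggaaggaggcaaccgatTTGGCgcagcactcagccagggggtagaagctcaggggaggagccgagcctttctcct
RNASE3 promoter: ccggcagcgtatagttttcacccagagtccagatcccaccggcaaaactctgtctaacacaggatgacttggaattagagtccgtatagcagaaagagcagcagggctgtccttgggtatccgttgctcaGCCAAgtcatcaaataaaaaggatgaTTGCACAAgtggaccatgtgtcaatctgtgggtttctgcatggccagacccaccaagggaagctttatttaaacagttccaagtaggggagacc
RETN promoter: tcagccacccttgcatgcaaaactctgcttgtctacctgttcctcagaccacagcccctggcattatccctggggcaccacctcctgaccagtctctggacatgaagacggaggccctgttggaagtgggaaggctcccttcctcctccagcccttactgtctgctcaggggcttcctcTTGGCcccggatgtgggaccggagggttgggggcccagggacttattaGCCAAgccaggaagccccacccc

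The NFI core was present in members of either direction. The promoter table held 6 of the 8 genes (DYSF, CXCR2, CAMP, RNASE3, RETN and LTF), with 3 starts for LTF. In windows from 250 bases before to 50 bases after the start, TTGGC or GCCAA was found in 5 of the 8 member promoters, while 46.3% of all 20468 promoters held it, and it was missing from CAMP and from all but 1 of the LTF starts. The core lay at position -58 from the start in DYSF, -64 in CXCR2, -120 in RNASE3 and at -71 and -23 in RETN. In LTF it lay at position 13 from a start inside the annotated gene. For CAMP, the 250 bases before the start, chr3:48223245-48223494, run past the annotated gene start at 48223347. The full NFI motif, TTGGC and GCCAA separated by 5 bases, was in no member promoter and in 0.0391% of all promoters. The C/EBP motif TTGCNNAA was found in RNASE3 at -94 and in 1 LTF promoter, against 8.37% of all promoters. The ETS motif GAGGAA or TTCCTC was found in CAMP, RETN and LTF, against 28.1% of all promoters, and the GFI1 motif AAATCA, searched on both strands, was in none of them, against 9.42%. A match of such short letters describes the window and does not show that a factor binds there.

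BPI, which encodes a protein that binds the lipopolysaccharide of Gram-negative bacteria, is at chr20:38304150-38337505 on the plus strand and has 15 exons in its canonical transcript (GENCODE release 44, GRCh38, as for all gene positions below). It gave 40, 57 and 40 counts in the scrambled samples against 472, 569 and 549 in the NFIC shRNA samples. The 3 scrambled samples lay close together at the low end and the NFIC shRNA samples were all far above them, without overlap. The level was 2.01 ± 0.264 CPM (SD, n = 3) in the controls and 23.7 ± 0.814 CPM with NFIC shRNA, a ratio of 11.8 and a fitted log2 fold change of 3.55 (SE 0.12). The spread between replicates was 13.1% of the mean with scrambled shRNA, where counting error alone gives 14.8%. Only 5 of the genes fitted had a larger log2 fold change than BPI.

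BPI shares its locus with other transcripts, which limits how its reads can be assigned. The long noncoding RNA AL359555.3 overlaps it on the same strand and holds 120 of the 1792 stretches of 50 bases in the canonical BPI transcript (6.70%). The long noncoding RNA AL359555.1 overlaps it on the opposite strand, and since the sources used here do not say that counting used strand, its reads and those of BPI cannot be told apart. AL359555.3 rose from 0.466 ± 0.126 to 4.25 ± 0.698 CPM (log2 fold change 3.16, SE 0.25, edgeR adjusted p = 1.06e-08). AL359555.1 rose from 0.414 ± 0.276 to 5.08 ± 0.649 CPM (3.55, SE 0.28, edgeR adjusted p = 1.19e-08). LBP, the plasma protein most like BPI with 58.3% identity of the coding sequence, gave at most 2 counts in any sample and was not fitted.

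DYSF, at chr2:71453561-71686763 on the plus strand with 56 exons, gave 279, 378 and 299 counts in the scrambled samples against 2206, 2459 and 2604 in the NFIC shRNA samples. All NFIC shRNA samples were high and within a narrow range. The level was 14.1 ± 1.23 CPM with scrambled shRNA against 109 ± 3.71 CPM with NFIC shRNA, a ratio of 7.72 and a log2 fold change of 2.94 (SE 0.07). There were 15 fitted genes with a larger log2 fold change. No stretch of 50 bases of the canonical DYSF transcript was found in another annotated gene, and the noncoding RNA annotated over its start, ENSG00000289327, was not analysed here.

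CXCR2, the receptor for chemokines such as CXCL8 that draws neutrophils out of the marrow and into tissue, is at chr2:218125289-218137251 on the plus strand and has 3 exons. It gave 356, 455 and 306 counts with scrambled shRNA against 578, 653 and 814 with NFIC shRNA. NFIC shRNA replicate 3 was the highest sample and scrambled replicate 3 the lowest, and the groups did not overlap. The level was 16.4 ± 2.10 CPM with scrambled shRNA against 30.5 ± 4.15 CPM with NFIC shRNA, a ratio of 1.86 and a log2 fold change of 0.89 (SE 0.11). The replicate spread of 13.6% in the NFIC shRNA samples exceeded the 3.83% of counting error. A larger log2 fold change was found in 910 fitted genes. CXCR1, the receptor next in sequence with 81.8% identity of the coding sequence, and the pseudogene CXCR2P1 are among the genes that hold 7.24% of the 50-base stretches of CXCR2. CXCR1 gave at most 2 counts in any sample, and CXCR2P1 fell (log2 fold change -0.98, SE 0.30, edgeR adjusted p = 0.0101).

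CAMP, the precursor of the antimicrobial peptide cathelicidin, is at chr3:48223347-48225491 on the plus strand and has 4 exons. It gave 41, 23 and 45 counts in the scrambled samples against 8, 9 and 3 in the NFIC shRNA samples. Scrambled replicate 2 was the lowest of its group but above all NFIC shRNA samples, and NFIC shRNA replicate 3 was at the detection limit of 3 counts. The level was 1.64 ± 0.623 CPM with scrambled shRNA against 0.302 ± 0.149 CPM with NFIC shRNA, that is 18.4% of the scrambled level, with a log2 fold change of -2.42 (SE 0.42). The replicate spread was 37.9% of the mean with scrambled shRNA, against 16.6% from counting error. Without scrambled replicate 2 the log2 fold change was -2.72, and without NFIC shRNA replicate 3 it was -2.05.

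DEFA4, an alpha-defensin of azurophil granules, is at chr8:6935820-6938306 on the minus strand and has 3 exons. It gave 74, 76 and 67 counts with scrambled shRNA against 47, 45 and 34 with NFIC shRNA. The scrambled samples were alike, and NFIC shRNA replicate 3 was the lowest sample. The level was 3.21 ± 0.182 CPM with scrambled shRNA against 1.90 ± 0.405 CPM with NFIC shRNA, or 59.1% of the scrambled level, with a log2 fold change of -0.76 (SE 0.20).

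RNASE3 is at chr14:20891385-20892348 on the plus strand and has 2 exons. Its counts were 105, 123 and 124 with scrambled shRNA against 81, 67 and 106 with NFIC shRNA. In raw counts NFIC shRNA replicate 3 was 1 count above the lowest scrambled sample, and only after scaling for depth did the groups separate, with 4.59 CPM in that sample and 4.85 CPM in scrambled replicate 1. The level was 5.21 ± 0.505 CPM with scrambled shRNA against 3.80 ± 0.860 CPM with NFIC shRNA, or 72.9% of the scrambled level, with a log2 fold change of -0.45 (SE 0.17). This was the smallest difference among the fitted members, and it lay between -0.62 without NFIC shRNA replicate 3 and -0.28 without NFIC shRNA replicate 2.

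RETN, at chr19:7669049-7670455 on the plus strand with 4 exons, gave 19, 34 and 21 counts with scrambled shRNA against 14, 15 and 15 with NFIC shRNA. Scrambled replicate 2 was the highest, and the others were within a few counts of the NFIC shRNA samples. The level was 1.08 ± 0.266 CPM with scrambled shRNA against 0.659 ± 0.0179 CPM with NFIC shRNA, or 61.0% of the scrambled level, with a log2 fold change of -0.72 (SE 0.31). Without scrambled replicate 2 the log2 fold change was -0.50. The replicate spread of the NFIC shRNA samples, 2.72%, was smaller than the 26.1% that counting error alone gives, so it understates the error of this gene.

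LTF, which encodes the iron-binding protein lactoferrin, is at chr3:46435645-46485234 on the minus strand and has 17 exons. It had 0 counts in 5 of the samples and 1 count in NFIC shRNA replicate 1. All samples were under the limit of 3 counts, so LTF was not fitted, no fold was computed and no difference was detectable at this depth.

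**Figure D1:**
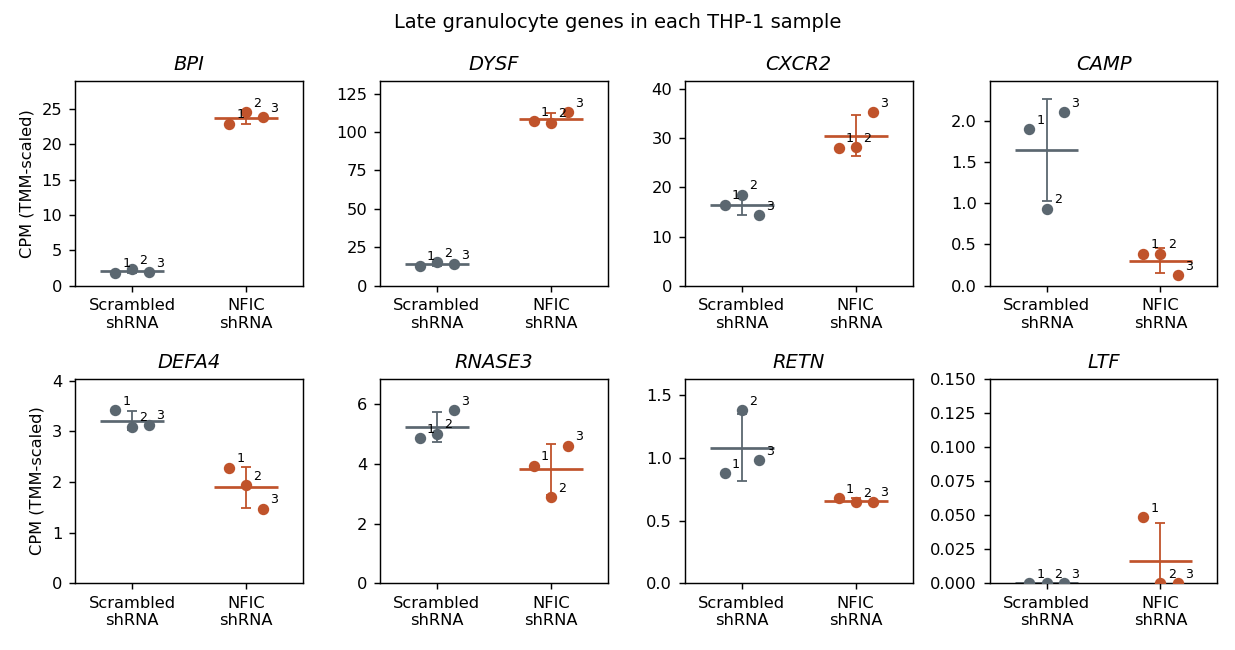
Level of each of the 8 genes in each sample, in TMM-scaled CPM on linear axes that start at 0 and differ between panels; points are samples with their replicate number, the line is the mean and the bar the SD over 3 replicates. BPI, DYSF and CXCR2 lie higher and CAMP, DEFA4, RNASE3 and RETN lower with NFIC shRNA, and LTF has 1 count in 1 sample.

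**Figure D2:**
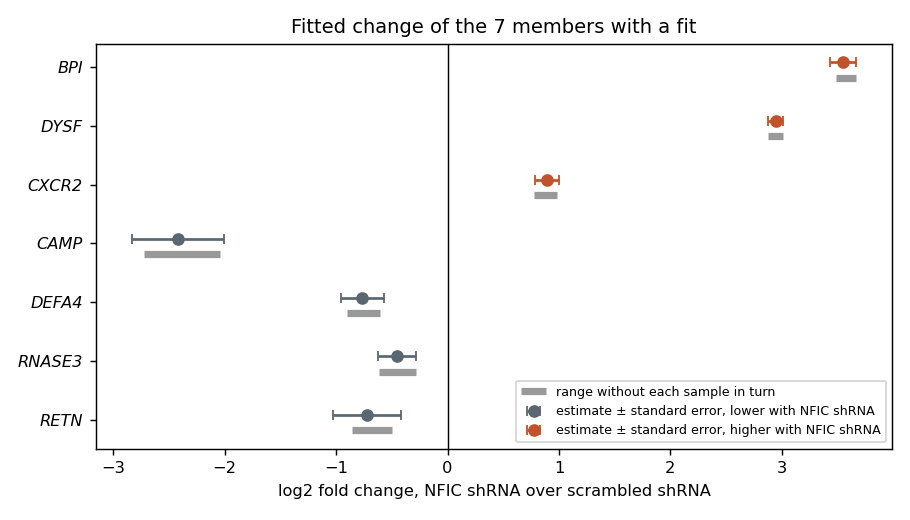
Log2 fold change of the 7 fitted genes, NFIC shRNA over scrambled shRNA, as the edgeR estimate with its standard error (points and bars) and the range of estimates when each of the 6 samples is left out in turn (grey). The estimates run from -2.42 for CAMP to 3.55 for BPI, and no grey range crosses 0.

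The order of the genes by level per gene length differed between the groups. In the deposited FPKM, which divide the normalized count by the gene length, the scrambled samples had RNASE3 highest at 7.16 ± 0.714, then DEFA4 at 5.41 ± 0.291, CXCR2 at 5.04 ± 0.639, CAMP at 2.18 ± 0.827, RETN at 2.07 ± 0.51, DYSF at 1.66 ± 0.148 and BPI lowest at 0.800 ± 0.105. RNASE3 was above DEFA4 in every sample, DEFA4 and CXCR2 overlapped, as did CAMP, RETN and DYSF, and BPI was below all of them. In the NFIC shRNA samples DYSF was highest at 12.9 ± 0.522, then BPI at 9.54 ± 0.353, CXCR2 at 9.48 ± 1.35, RNASE3 at 5.28 ± 1.22, DEFA4 at 3.22 ± 0.669, RETN at 1.27 ± 0.0297 and CAMP at 0.404 ± 0.198. BPI and CXCR2 overlapped there, and every other neighbouring pair in the order was separate. Among all genes fitted, the FPKM of BPI moved from percentile 18.7 to 70.7 and that of DYSF from 30.5 to 77.6, while CAMP moved from 35.9 to 12.4 and DEFA4 from 57.2 to 45.1.

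**Figure D3:**
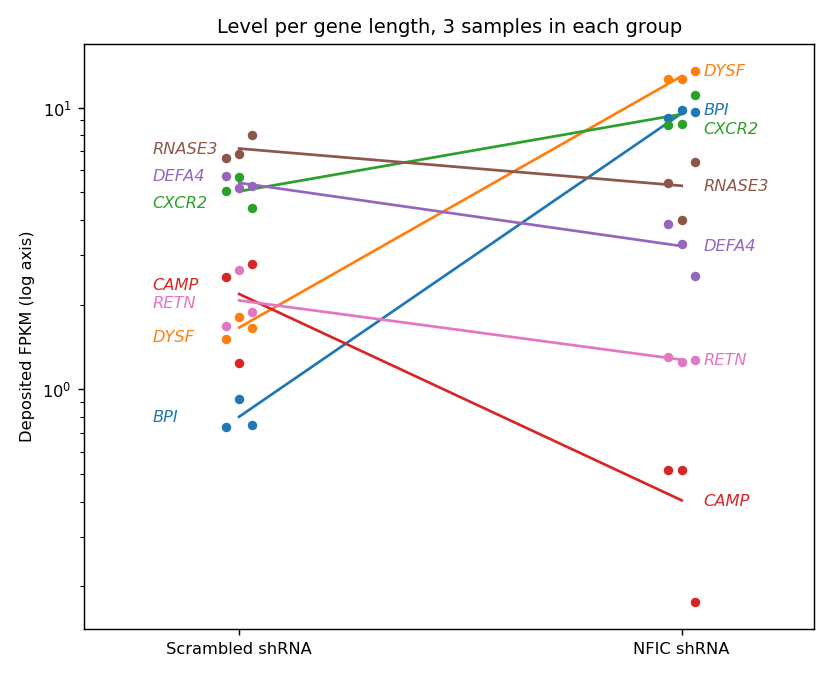
Deposited FPKM of the 7 fitted genes in the 3 scrambled and 3 NFIC shRNA samples, on a log axis; points are samples and lines join the group means. RNASE3 is highest and BPI lowest with scrambled shRNA, and DYSF is highest and CAMP lowest with NFIC shRNA.

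The genes that were lower with NFIC shRNA were few in counts. CAMP, DEFA4, RNASE3 and RETN together gave 239, 256 and 257 counts in the scrambled samples against 150, 136 and 158 in the NFIC shRNA samples, and RNASE3 made up between 43.9% and 67.1% of that sum. RNASE3 was lower by less than its closest relative. RNASE2, which encodes another eosinophil ribonuclease with 84.7% identity of the coding sequence, fell from 142 ± 9.05 to 63.6 ± 9.94 CPM (log2 fold change -1.15, SE 0.09, edgeR adjusted p = 4.64e-07). The RNASE3 count was 3.68%, 3.34% and 4.05% of the RNASE2 count in the scrambled samples against 6.54%, 5.16% and 6.14% in the NFIC shRNA samples. The pseudogene RNASE2CP and RNASE2 hold 5.26% of the 50-base stretches of RNASE3, so some of its reads could have been assigned to them or left out.

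The profiles most like that of BPI over the 6 samples, by the root mean square difference of centred log2 CPM, belonged to AC243967.1 (0.17), CEACAM6 (0.21), DYSF (0.29) and VSTM1 (0.45). Those most like DYSF belonged to VSTM1 (0.21), HK3 (0.28), BPI (0.29) and CAB39L (0.30). AC243967.1 overlaps CEACAM6 on the same strand, so reads of this pair could be split, left out or counted for both. Their profiles may therefore not be separate. CEACAM6, a cell adhesion molecule of granulocytes, was at 4.37 ± 0.591 CPM with scrambled shRNA against 53.5 ± 7.59 CPM with NFIC shRNA. HK3, a hexokinase of myeloid cells, was at 18.4 ± 1.24 and 104 ± 7.62 CPM, and CAB39L at 11.6 ± 0.907 and 62.2 ± 4.74 CPM. VSTM1, an inhibitory receptor of myeloid cells, was at 0.0135 ± 0.0235 CPM with scrambled shRNA, under the limit of detection, and at 0.540 ± 0.0367 CPM with NFIC shRNA. Its fitted log2 fold change was 4.74 (SE 0.78), against 2.94 for DYSF and 3.55 for BPI. The prior count of 2 used for the profiles weighs heavily on so few counts, so the rank of VSTM1 is not reliable. These genes were picked for their likeness in the same samples, so their values are a description.

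The gene lists around the members did not move as a block either. They leave out the 8 members, and their counts stand beside the 29.6% of all fitted genes that rose and the 30.3% that fell. Of 12 fitted genes in the mature neutrophil list 8 rose and 2 fell, with a median log2 fold change of 0.63. S100A9 and S100A8, the subunits of calprotectin, rose by log2 fold changes of 1.63 (SE 0.07) and 0.56, and S100A12, a calcium-binding protein of the same family, by 1.82. The list is not particular to neutrophils, since the study describes S100A12 as high in classical monocytes. CSF3R, the receptor for granulocyte colony-stimulating factor, fell (-0.50), as did NAMPT, an enzyme of NAD synthesis (-0.39). The other 10 measured genes of this list, CXCR1 among them, were too low to be fitted. The summed level of the list was between 1011 and 1122 CPM in the controls and 2099 to 2417 CPM with NFIC shRNA. Most of this rise was S100A9, which was at 531 ± 41.4 CPM in the controls and 1649 ± 148 CPM with NFIC shRNA.

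In the azurophil granule list, the class of BPI and DEFA4, 2 of 11 fitted genes rose and 7 fell, with a median of -0.26. The list also holds MS4A3, which is not a granule protein. CTSG, the protease cathepsin G (-0.74), AZU1, azurocidin (-1.57), and MS4A3, a membrane protein of granulocyte progenitors (-1.12), fell, and LYZ, lysozyme (0.72), and CD63, a granule membrane protein (0.55), rose. BPI, at 3.55, thus differed in sign from the larger part of this list, and DEFA4, at -0.76, did not. In the list of specific granule proteins, to which CAMP and LTF belong, 2 of 10 fitted genes rose, 2 fell and 6 passed in neither direction, with a median of 0.08. SLPI, a protease inhibitor (0.81), and ORM2, an acute phase protein (0.83), rose, and CHI3L1, a chitinase-like protein (-3.08), and HP, haptoglobin (-1.73), fell. Of the gelatinase granule and secretory vesicle list, 3 of 8 fitted genes rose (FPR2, a formyl peptide receptor, at 2.34, ITGAM, the integrin chain CD11b, at 0.99, and CR1, a complement receptor, at 0.68) and 1 fell (MMP9, gelatinase B, at -1.08).

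Transcription factors of granulocytic development gave 5 higher and 3 lower of 16 fitted, with a median of 0.01. STAT3 rose by 0.61, GFI1 by 0.44 and CEBPE, which is needed for specific granules, by 0.72, while CEBPA fell by 0.51, RUNX2 by 0.44 and RARA by 0.33 on the log2 scale. Of 7 fitted monocytic factors 1 rose (EGR1, 0.45) and 3 fell (VDR, -0.92, NR4A1, -0.54, and IRF8, -0.18). Among the monocyte and macrophage markers, the scrambled samples had CSF1R, the receptor for macrophage colony-stimulating factor, at 219 ± 9.29 CPM and CD68 at 261 ± 8.34 CPM, but CD14 at only 7.16 ± 0.760 CPM and CD163, MRC1, MSR1 and C1QA too low to be fitted. Genes of monocytes and macrophages gave 3 higher and 7 lower of 14 fitted, with a median of -0.35 and a summed level between 1300 and 1338 CPM in the controls and 700 to 768 CPM with NFIC shRNA. CCR2, the monocyte chemokine receptor, fell from 152 ± 7.75 to 25.1 ± 0.375 CPM, and CD68, a lysosomal protein, and CX3CR1, the fractalkine receptor, fell (log2 fold changes -1.01 and -1.16), whereas CD14, a co-receptor for lipopolysaccharide (0.65), MARCO, a scavenger receptor (0.92), and APOBEC3A, a cytidine deaminase (0.58), rose. In bulk RNA, a change in the number of cells of a type and a change in the RNA per cell cannot be told apart.

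Markers of other blood cells were measured beside RNASE3 and the other granule genes. Of 5 fitted eosinophil and basophil genes 4 fell and 1 rose. RNASE2 fell as given above, EPX, eosinophil peroxidase, fell by 1.21 on the log2 scale, the chemokine receptor CCR3 fell from between 17 and 22 counts to between 1 and 3 counts, and the transcription factor GATA2 rose (0.52). The summed level of this list was between 142 and 160 CPM in the controls and 66.8 to 84.3 CPM with NFIC shRNA, nearly all of it RNASE2, and IL5RA and SIGLEC8 had at most 1 count in any sample. Of 5 fitted genes of lymphocytes, platelets and red cells 4 fell, among them ITGA2B, a platelet integrin (-1.83), NKG7 of killer cells (-1.37) and CD79A of B cells (-0.86). The sum of that list was between 17.7 and 18.2 CPM in the controls and 7.08 to 8.27 CPM with NFIC shRNA, and the defining markers CD3D and HBA1 had at most 1 count in any sample. All samples were GFP-sorted cells of the THP-1 line. The levels of these markers are therefore not read as the presence of other blood cells, which was not tested.

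**Figure D4:**
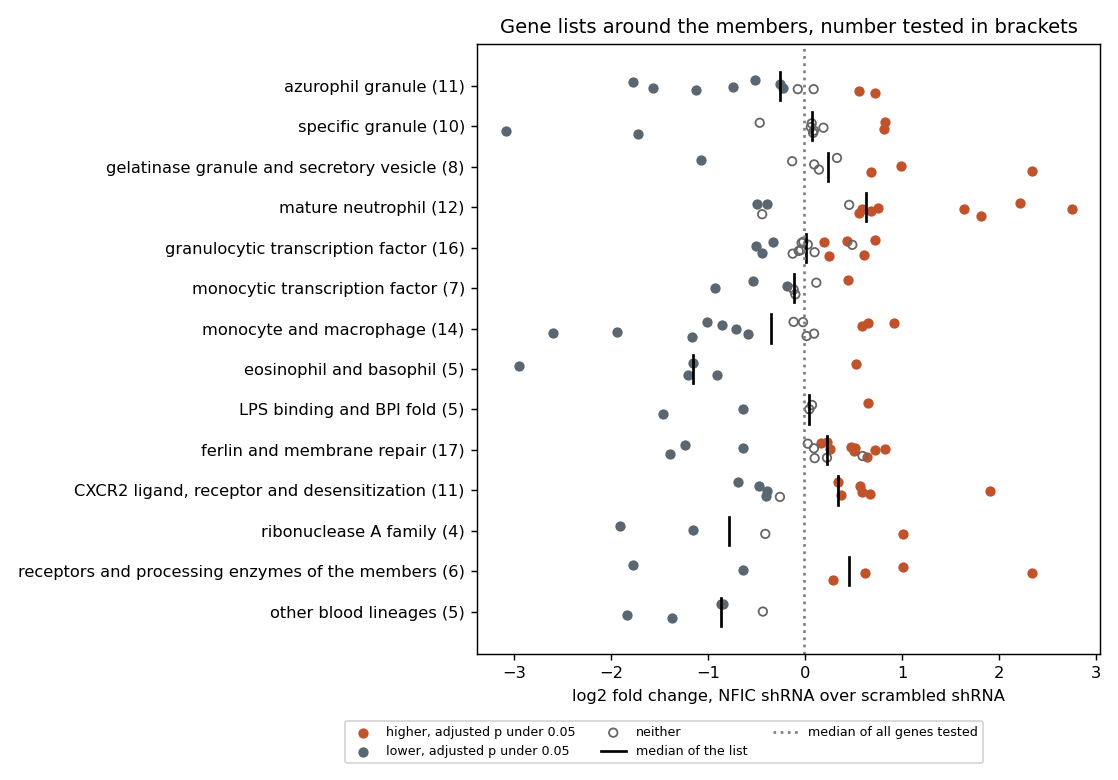
Log2 fold change of each fitted gene in 14 lists around the members, which are left out, with the number fitted in brackets; filled points passed an adjusted p under 0.05 in edgeR (orange higher, grey lower), open points did not, black lines are list medians and the dotted line is the median of all genes fitted. The mature neutrophil list has the highest median, 0.63, and the eosinophil and basophil list the lowest, -1.15.

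The partners of single members were also mixed. Among genes of lipopolysaccharide recognition and the BPI fold, 1 of 5 fitted rose (CD14) and 2 fell (PLTP, phospholipid transfer protein, -1.46, and TLR4, the lipopolysaccharide receptor, -0.64). Among ferlins and genes of membrane repair, the setting of DYSF, 9 of 17 rose and 3 fell, with a median of 0.23. ANXA5 and ANXA6, annexins that bind damaged membrane, rose by 0.64 and 0.52, and MYOF, the ferlin closest to DYSF with 59.3% identity of the coding sequence, rose from 39.4 ± 1.40 to 69.8 ± 7.80 CPM (0.83, SE 0.08, edgeR adjusted p = 6.15e-08). AHNAK, a large scaffold protein (-1.23), S100A10, an annexin partner (-0.63), and OTOF, another ferlin (-1.40), fell.

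Of 11 fitted ligands, related receptors and desensitizing genes of CXCR2, 6 rose and 4 fell, with a median of 0.34. The receptor kinases GRK6 and GRK2 rose by 0.67 and 0.37 and the G protein subunit GNAI3 by 0.57, while GRK3 (-0.48), the arrestin ARRB2 (-0.69) and the chemokine receptor CXCR4 (-0.41), which holds neutrophils in the marrow, fell. The ligands CXCL1 and CXCL8, named after their values were seen, rose from 0.312 ± 0.0236 to 1.19 ± 0.468 CPM and from 6.47 ± 0.570 to 9.75 ± 1.55 CPM (edgeR adjusted p = 0.0005 and 0.000905). Of 4 fitted genes of the ribonuclease A family and its inhibitor, the inhibitor RNH1 rose (1.01) and RNASE2 and RNASE6 (-1.91) fell. Among receptors and processing enzymes, PRTN3, the protease that frees the active peptide from the CAMP product, fell by 1.77 on the log2 scale, FPR2, which that peptide binds, rose by 2.34, and CAP1 and TLR4, receptors proposed for resistin, rose by 0.62 and fell by 0.64. In this list 4 of 6 fitted genes rose and 2 fell.

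Genes next to the members showed whether neighbours moved with them. Within 100 kb of a member's span, 38 other genes were fitted, of which 8 rose, 15 fell and 15 passed in neither direction, against 29.6% of all fitted genes that rose and 30.3% that fell. The 3 genes that rose near BPI were both overlapping noncoding RNAs and KIAA1755, 43.4 kb away. Both RNAs are among the 8 counted as higher. As given above, their reads may be shared with BPI, so their rise is not a separate result about neighbours. KIAA1755 rose from 0.336 ± 0.260 to 3.21 ± 0.496 CPM (log2 fold change 3.28, SE 0.35, edgeR adjusted p = 5.08e-07). SNHG17 (-0.54) and the noncoding RNA ENSG00000224635 (-0.96), farther out on that chromosome, fell. The only fitted neighbour of DYSF, ZNF638, 18.5 kb away, had a log2 fold change of 0.10 (edgeR adjusted p = 0.114). Of 4 neighbours of CXCR2 3 fell and none rose, namely RUFY4 (-0.78), CXCR2P1 and TNS1 (-0.32), opposite in sign to CXCR2.

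Near the members that were lower, the neighbours were of either sign. Of 5 around CAMP, ZNF589 (-1.14) and the pseudogene MRPS18AP1 (-1.91) fell and CDC25A, a phosphatase of the cell cycle, rose (0.47). All 3 around RNASE3 fell (RNASE2, RNASE2CP at -1.20 and METTL17 at -0.20). Of 2 around DEFA4, DEFB1, a beta-defensin, fell (-0.38). Of 13 around RETN 4 rose and 3 fell. The 4 that rose were FCER2 (0.64), STXBP2 (0.37), XAB2 (0.41) and ENSG00000268400 (0.36), and the 3 that fell were PCP2 (-0.85), CD209 (-0.81) and TRAPPC5 (-0.20). STXBP2 and ENSG00000268400 lie at nearly the same distance from RETN, 21.2 and 21.6 kb, and whether they share reads was not tested. Of 3 around LTF, CCR2 fell.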

How the data were processed

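Bulk RNA of 6 THP-1 samples was sequenced. Per the methods, reads had been trimmed by the authors with Trim Galore, mapped to GRCh38 with STAR and counted per gene with featureCounts on the Ensembl release 96 gene models. The tool versions are not given in the sources used here. The deposited counts are unnormalized whole numbers. The deposited FPKM were made by the authors from counts divided by a size factor and the gene length. The 6 columns of size-factor normalized counts and the authors' own comparison (fold changes and p-values) were not used. Columns were assigned to samples by name.

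The counts were tested with edgeR 4.0.16 in R 4.3.3 (TMM, filterByExpr, robust quasi-likelihood fit, 3 against 3, no replicate block), with Benjamini-Hochberg adjustment over 19182 genes and a threshold of 0.05. CPM are TMM-scaled and given as mean ± SD. Profiles used log2 CPM with a prior count of 2. Depth was 20369543 to 24809720 counts per sample. Positions and overlaps came from GENCODE release 44, in which 90 of the genes fitted had no entry, and promoters from RefSeq. Coding sequences were aligned end to end.

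The members, the gene lists and the rule for named genes were set with earlier results of these data known. The rule took all members, NFIC, up to 3 genes with the smallest adjusted p in each direction from each list, the 4 profiles nearest to BPI and to DYSF, called neighbours within 100 kb, and the closest paralogs. CXCL1, CXCL8, CSF1R, ZNF638 and the list markers named only as low or not fitted fall outside it and were added with their values known. Alternatives were other scalings, DESeq2 1.42.0, other filters on low counts, each sample left out, both replicate blocks and other neighbour distances.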

Additional observations from a re-analysis of the deposited data

How the results depend on the processing

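Of 540 values recomputed under the alternatives, 534 stayed within the replicate spread or within 1.5 times the count, 6 moved and 0 changed sign. With a minimum of 10 counts in every sample, the genes that fell were 1 in the specific granule list, 2 in the eosinophil and basophil list and 1 in the ribonuclease A list, since fewer genes were tested, and CAMP had no value. Neighbours within 250 kb gave 16 higher and 33 lower, and those within 50 kb gave 6 lower. The genes called over the whole table were 4953 higher and 6503 lower with upper-quartile factors, and 5194 and 4890 with DESeq2. The replicate numbers did not pair the samples (correlations of deviations 0.0563, -0.0862 and -0.0446). With a replicate block, 5439 genes were higher and 5544 lower. With samples blocked by the digit of their name, and the pair without a shared digit put together, they were 5981 and 6118. The log2 fold changes with the replicate block were 3.55 for BPI, 2.95 for DYSF, 0.89 for CXCR2, -2.39 for CAMP, -0.77 for DEFA4, -0.47 for RNASE3 and -0.71 for RETN. Depth limits LTF, CAMP and RETN, with at most 45 counts in any sample.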
